A study of Homo sapiens with 4 samples.

Results

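The albumin gene family and the main carrier proteins that the liver secretes into plasma were followed as 10 genes, ALB, AFP, AFM, GC, TTR, TF, RBP4, AHSG, FETUB and SERPINA1. The genes were chosen by symbol from the 25343 gene symbols listed in every library, and all 10 were listed. RNA was sequenced as 4 libraries from Huh7 and PLC/PRF/5, established cell lines from human hepatocellular carcinoma. Each line carried, after lentiviral delivery and puromycin selection, either a non-target control (NTC) construct or a short hairpin RNA against SCD1 (construct shSCD1#13; gene symbol SCD), so that both arms had been transduced and selected. The groups were Huh7 control, Huh7 knockdown, PLC/PRF/5 control and PLC/PRF/5 knockdown, with 1 library each, and a single hairpin stood for the knockdown. The question was how these genes differed between knockdown and control in each line, and between the lines.

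Albumin is the most abundant protein of plasma, keeps its osmotic pressure and carries fatty acids, bilirubin and drugs. Alpha-fetoprotein (AFP), afamin (AFM) and the vitamin D-binding protein (GC) are its relatives, and all 4 genes lie on chromosome 4. AFP is the albumin of the fetus, is silenced after birth and returns in many hepatocellular carcinomas, which makes it a serum marker of that tumour. The other carriers belong to unrelated families. Transthyretin (TTR, chromosome 18) carries thyroxine and holds the retinol-binding protein RBP4 (chromosome 10) in plasma, transferrin (TF, chromosome 3) carries iron, and the fetuins AHSG and FETUB (chromosome 3) bind mineral and inhibit proteases. SERPINA1 (chromosome 14) encodes alpha-1-antitrypsin, the inhibitor of neutrophil elastase. Transcription of such genes in hepatocytes is driven by liver-enriched factors, among them HNF4, FOXA and C/EBP proteins.

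The promoters of 8 of the 10 genes were found in the RefSeq table used here (build GRCh38.p14), as 13 windows of 250 bases before a transcript start; GC and TTR were not matched. Each window was searched on both strands for TGTTTNC (FOXA), CCAAT (the site of NF-Y), the TATA box letters TATAAA, and the letters AGGTCA (nuclear receptors). The sequences shown are those of the 3 neighbouring albumin family genes, whose levels are compared below, of AHSG, which stood lowest in the PLC/PRF/5 knockdown relative to its control, and of SERPINA1, the most abundant of the 10 in PLC/PRF/5. They are written 5′ to 3′ in the direction of transcription, with every match to a searched motif in capitals. ALB is at chr4:73404037-73404286, AFP at chr4:73435971-73436220, AFM at chr4:73481495-73481744 and AHSG at chr3:186612810-186613059, all on the plus strand, and the SERPINA1 window, 1 of 2 for that gene, is at chr14:94388603-94388852 on the minus strand.
ALB: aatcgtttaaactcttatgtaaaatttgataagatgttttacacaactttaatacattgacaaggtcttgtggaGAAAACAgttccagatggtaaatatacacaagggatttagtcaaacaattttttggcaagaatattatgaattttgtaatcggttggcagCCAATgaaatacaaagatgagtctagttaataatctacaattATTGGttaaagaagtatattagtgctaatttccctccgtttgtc
AFP: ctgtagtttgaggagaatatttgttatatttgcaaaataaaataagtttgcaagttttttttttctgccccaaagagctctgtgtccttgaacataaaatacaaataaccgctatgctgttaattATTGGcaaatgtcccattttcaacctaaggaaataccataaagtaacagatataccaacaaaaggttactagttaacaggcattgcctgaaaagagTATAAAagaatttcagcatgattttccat
AFM: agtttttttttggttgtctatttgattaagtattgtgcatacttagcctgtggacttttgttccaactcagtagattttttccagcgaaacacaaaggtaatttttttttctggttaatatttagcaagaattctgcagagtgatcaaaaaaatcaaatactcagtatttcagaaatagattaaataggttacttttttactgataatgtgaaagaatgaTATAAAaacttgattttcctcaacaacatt
AHSG: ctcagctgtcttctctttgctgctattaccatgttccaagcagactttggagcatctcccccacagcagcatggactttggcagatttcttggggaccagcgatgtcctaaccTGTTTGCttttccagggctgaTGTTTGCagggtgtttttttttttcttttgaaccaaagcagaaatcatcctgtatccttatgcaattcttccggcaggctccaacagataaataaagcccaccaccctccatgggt
SERPINA1: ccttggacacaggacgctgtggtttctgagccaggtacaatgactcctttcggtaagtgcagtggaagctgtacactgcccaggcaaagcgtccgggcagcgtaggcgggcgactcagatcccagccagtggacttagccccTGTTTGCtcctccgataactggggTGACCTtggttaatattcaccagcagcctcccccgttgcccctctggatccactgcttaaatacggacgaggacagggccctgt

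TATAAA stood 29 bases before the AFP start and 30 bases before the AFM start, and 10.7% of all 35116 windows of this length in the table held it on either strand. ALB had CCAAT matches 86 and 44 bases before its start (32% of all windows). In AFP the CCAAT match, read on the reverse strand, lay 125 bases before the start. AHSG had TGTTTNC matches 137 and 116 bases before its start (15.5% of all windows) and none of the other motifs. The ALB, AFP and AFM windows were poor in G and C, at 30%, 31.6% and 28%, where the median of all windows was 58%. These matches describe letters in a window and show no binding.

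SCD was lower in both knockdown libraries. It stood at 1755 TPM (transcript abundance per unit of length, scaled to the same total in each library) in control Huh7 cells against 137 TPM after knockdown, and in PLC/PRF/5 cells 1111 TPM stood against 178 TPM. Between 17405 and 17931 symbols were above 0 in a library, and the TPM scale does not carry the sequencing depth. Of the 13 hepatocyte markers, the fibrinogen, apolipoprotein and HNF4A genes were present in both lines, while the adult drug-metabolising enzyme gene CYP3A4 was at 0.18 TPM or less in every library. The urea cycle gene CPS1 had 7.41 TPM in the Huh7 control against 1799 TPM in the PLC/PRF/5 control. The endothelial markers summed to between 1.76 and 3.40 TPM, with KDR and STAB2 listed at 0 in every library. The 6 cholangiocyte markers summed to 512 TPM in the Huh7 control, 847 TPM in the Huh7 knockdown, 40.5 TPM in the PLC/PRF/5 control and 48.5 TPM in the PLC/PRF/5 knockdown, mostly from KRT19, SOX9 and EPCAM in Huh7 and from SOX9 in PLC/PRF/5. The 7 stromal markers summed to 55.8 and 77.6 TPM in Huh7 and to 3.47 and 2.53 TPM in PLC/PRF/5, with ACTA2 listed at 0 throughout. The leukocyte markers summed to between 1022 and 2614 TPM, nearly all from LYZ, while CD3E was at 0.05 TPM or less. The part of these markers in the differences described here was not tested. In bulk RNA, fewer cells that express a gene and less RNA per cell cannot be told apart.

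The 10 genes took up 2.89% of all TPM in the Huh7 control library, 2.72% in the Huh7 knockdown, 0.312% in the PLC/PRF/5 control and 0.185% in the PLC/PRF/5 knockdown. In Huh7, 5 of the 10 genes reached 1000 TPM in each arm (ALB, AFP, TF, RBP4 and SERPINA1). In the PLC/PRF/5 control 2 did, TF and SERPINA1, and in the PLC/PRF/5 knockdown none. AFP and ALB made up most of the sum in Huh7. AFP gave 53.4% and ALB 22.5% of it in the control, and 37.8% and 38.5% in the knockdown. In PLC/PRF/5 the same genes gave 0.551% and 2.22% in the control, and SERPINA1, TF and RBP4 gave 41.7%, 36% and 18.3%. SERPINA1 gave 52.6% of the sum in the PLC/PRF/5 knockdown. The lines thus differed in which carrier transcripts dominated, as the plot of the make-up of each library shows.

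**Figure D1:**
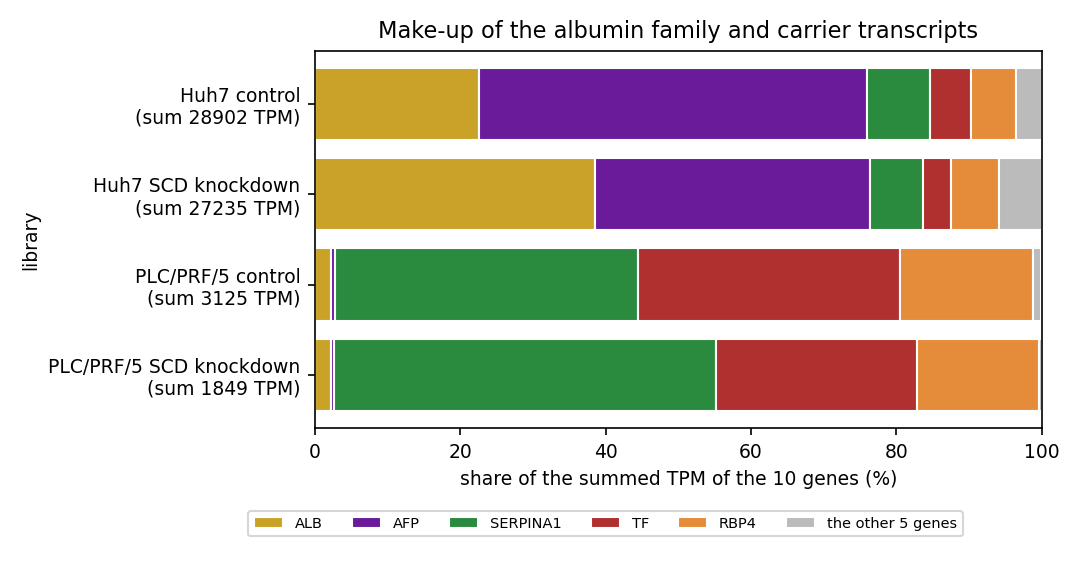
Share of the summed TPM of the 10 genes taken by ALB, AFP, SERPINA1, TF, RBP4 and the other 5 genes together, in percent, for each of the 4 libraries, with the sum in TPM under each library's name. AFP and ALB fill most of the Huh7 bars, and SERPINA1, TF and RBP4 most of the PLC/PRF/5 bars.

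Within the albumin family, GC was the gene that differed most between the arms of Huh7. GC, whose product carries vitamin D metabolites and takes up actin released from damaged cells, had 112 TPM in control Huh7 cells and 736 TPM in SCD-depleted ones, a 6.6-fold higher TPM, and its rank among all symbols went from 1640 to 185. PLC/PRF/5 cells had 0.56 TPM, or 0.98 TPM with knockdown. GC was thus higher in the knockdown library of both lines, but under 1 TPM in each PLC/PRF/5 library. On the scale of log2((knockdown TPM + 1)/(control TPM + 1)), which is used for all log2 fold changes here and understates the change of low genes, GC had 2.71 in Huh7 and 0.34 in PLC/PRF/5. With 1 library per arm, such differences within a line have no replicate check. The nearest protein-coding neighbours of GC on chromosome 4, SLC4A4 and NPFFR2, differed by 0.58 and 0.61 on that scale in Huh7 and by 0.56 and 0.61 in the other line. They were named after their values were seen.

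ALB had 6498 TPM in control Huh7 cells and 10479 TPM in depleted ones; PLC/PRF/5 cells had 69.3 TPM, or 41.5 TPM when depleted. It was 1.61-fold higher in the Huh7 knockdown and 1.67-fold lower in the PLC/PRF/5 knockdown, so the lines stood on opposite sides of 0 (log2 fold changes of 0.69 and -0.73). Its rank in Huh7 went from 5 to 2 among all symbols, and in PLC/PRF/5 from 2776 to 4652.

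AFP, at 15421 TPM, was the most abundant of all symbols in control Huh7 cells, and at 10302 TPM it ranked 3 after knockdown. PLC/PRF/5 cells had 17.2 TPM, or 6.96 TPM when depleted. AFP was therefore lower with the knockdown in each line, 1.5-fold in Huh7 and 2.48-fold in PLC/PRF/5 by TPM. AFM, which carries vitamin E and Wnt proteins, was scarce throughout. Its Huh7 levels were 0.98 TPM (control) and 2.49 TPM (knockdown), its PLC/PRF/5 levels 0.15 and 0.29 TPM. ANKRD17 and RASSF6, the genes that flank the ALB, AFP and AFM cluster, differed by 0.04 and 0.58 on the log2 scale in Huh7 and by 0.20 and -0.13 in the other line. RASSF6 did not exceed 2.86 TPM in any library. Both were named after their values were seen.

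The ratio of AFP to ALB within a library does not depend on how libraries are scaled to each other. In Huh7 it was 2.37 for the control and 0.983 for the knockdown, 2.41-fold lower. The PLC/PRF/5 ratios were 0.249 and 0.168, 1.48-fold lower. In both lines the fetal transcript was thus scarcer relative to the adult one in the knockdown library. The lines reached this from different sides, since ALB was higher in the Huh7 knockdown and lower in the PLC/PRF/5 knockdown. With 5 TPM added to both genes the ratios in PLC/PRF/5 were 0.299 and 0.257. No test was made of the ratio.

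**Figure D2:**
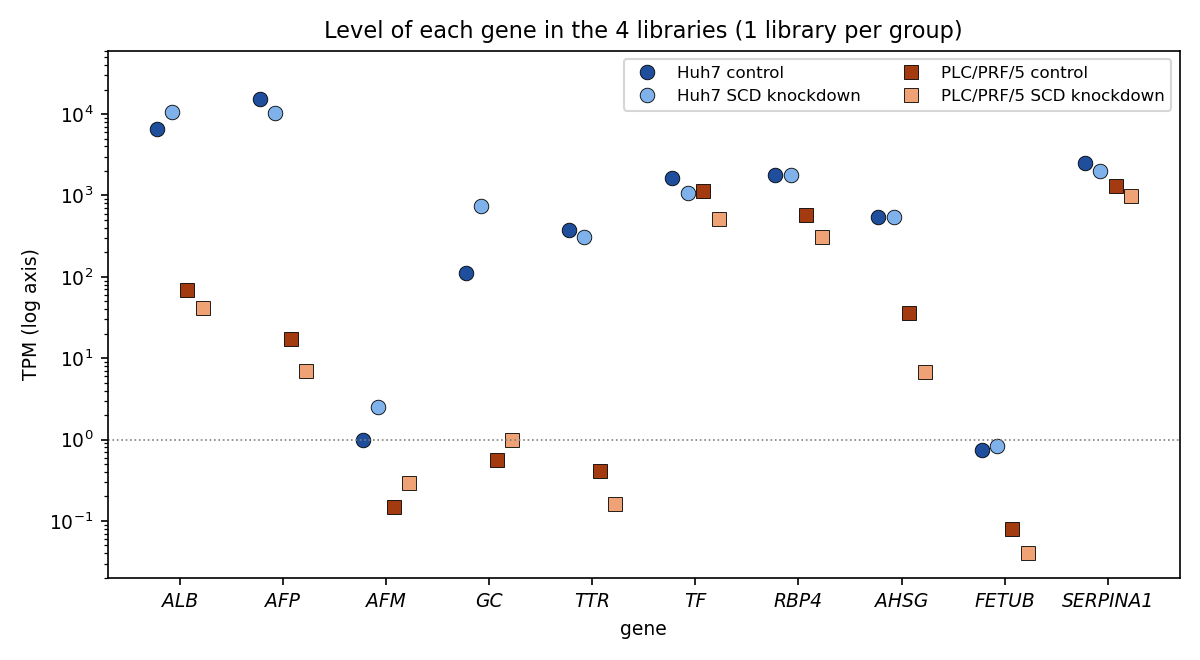
TPM of the 10 genes on a log axis, with 1 point per library; circles are Huh7, squares are PLC/PRF/5, and the dotted line marks 1 TPM. The Huh7 points of GC lie at 112 TPM for the control and 736 TPM for the knockdown, the PLC/PRF/5 points of AHSG at 35.7 and 6.73 TPM, while AFM and FETUB stay under 3 TPM everywhere.

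Among the carriers outside the albumin family, AHSG stood lowest in the PLC/PRF/5 knockdown relative to its control. AHSG, or fetuin-A, had 35.7 TPM in control PLC/PRF/5 cells and 6.73 TPM after knockdown. That is a 5.31-fold lower level, or -2.25 on the log2 scale. Its Huh7 levels were 550 TPM without and 551 TPM with the knockdown. FETUB, its neighbour and paralogue, was under 1 TPM in every library, with 0.74 and 0.83 TPM for Huh7 and 0.08 and 0.04 TPM for PLC/PRF/5. DNAJB11, an ER chaperone gene on the other side of AHSG and named after its values were seen, had 218 TPM in control and 311 TPM in depleted PLC/PRF/5 cells. AHSG and its flanking gene thus stood on opposite sides of 0 in that line.

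TF was lower with the knockdown in each line. Huh7 cells had 1619 TPM as controls and 1058 TPM when depleted, 1.53-fold lower. PLC/PRF/5 cells had 1125 TPM as controls and 511 TPM when depleted, 2.2-fold lower. TF shares 7.85% of the 31-base words of its coding sequence with another gene, mainly its pseudogene TFP1, so a small part of its reads could be assigned to either. TOPBP1 and SRPRB, the neighbours of TF, had log2 fold changes between -0.03 and 0.34 over both lines, against -0.61 and -1.14 for TF. They too were named after their values were seen.

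RBP4 and TTR form a complex in plasma, yet their transcripts were present in very different proportions in the lines. RBP4 levels in Huh7 were 1801 TPM (control) and 1803 TPM (knockdown). In PLC/PRF/5 they were 572 TPM and 310 TPM, 1.85-fold lower with the knockdown. TTR levels were 371 TPM and 312 TPM for Huh7, but 0.41 TPM and 0.16 TPM for PLC/PRF/5. The ratio of RBP4 to TTR was therefore 4.85 and 5.78 for control and depleted Huh7 cells, and 1396 and 1936 for PLC/PRF/5, where the divisor was under 1 TPM.

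SERPINA1 was lower in the knockdown library of each line by a like amount. Huh7 cells had 2528 TPM as controls and 1990 TPM when depleted, and PLC/PRF/5 cells 1303 and 972 TPM. These are 1.27-fold and 1.34-fold lower values in the knockdown libraries, with log2 fold changes of -0.35 and -0.42. Its coding sequence shares 1.14% of its 31-base words with another gene, its neighbour SERPINA2. The 8 genes other than TF and SERPINA1 share none.

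**Figure D3:**
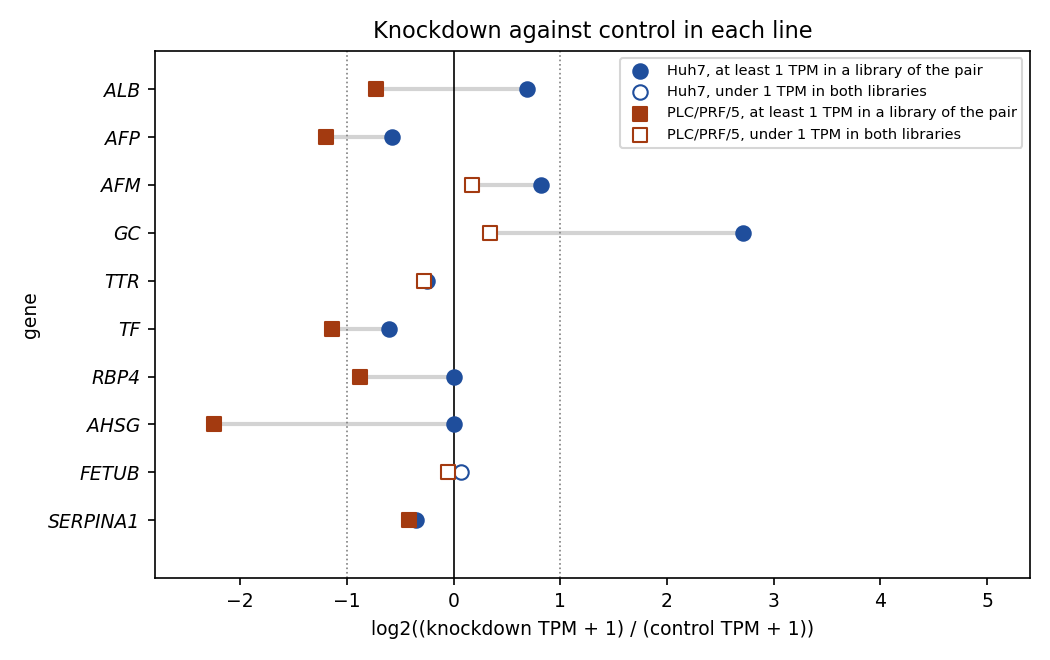
Log2 fold change of each gene, knockdown against control, on log2(TPM + 1), with circles for Huh7 and squares for PLC/PRF/5 joined by a grey line; open symbols are genes under 1 TPM in both libraries of a line, and dotted lines mark 2-fold. GC at 2.71 in Huh7 and AHSG at -2.25 in PLC/PRF/5 lie farthest from 0, and all 6 filled squares are below 0.

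Counted by size, 1 of the 9 genes with at least 1 TPM in a Huh7 library was at least 2-fold higher in the knockdown on the log2(TPM + 1) scale, which was GC, and none was at least 2-fold lower. By plain TPM, AFM was also past 2-fold, at 2.54-fold higher. Among all 13485 such genes of Huh7, 3.1% were called higher and 1.54% lower by this rule. In PLC/PRF/5, 6 of the 10 genes reached 1 TPM in a library, and 3 of them, AFP, TF and AHSG, were at least 2-fold lower, where 1.11% of 13057 genes were. None of the 6 was at least 2-fold higher, against 1.72% of all genes. The higher share of all 2-fold genes in PLC/PRF/5 was 60.8%, and 40.8% with median-ratio scaling. With pseudocount 5, AFP was at -0.89 and no longer counted in PLC/PRF/5. With each library rescaled by its median ratio to the others, RBP4 was counted too, at -1.03. The 9 genes considered in Huh7 had a median log2 fold change of 0.00 and the 6 in PLC/PRF/5 of -1.01, beside 0.08 and 0.10 over all genes considered. Of the 6 genes considered in both lines, AFP, TF and SERPINA1 were lower in both. ALB, RBP4 and AHSG were on opposite sides of 0, but RBP4 and AHSG stood at 0.00 in Huh7 and at -0.10 after median-ratio scaling. The hepatocyte markers were mostly lower too in the PLC/PRF/5 knockdown, where 9 of the 11 considered were below 0 with a median of -0.70. Of these 11, 18.2% were above 0, against 63.4% of all genes. All 13 markers summed to 8911 TPM without and 6350 TPM with the knockdown. In Huh7, 6 of 12 were below 0 with a median of 0.09, and 50% were above 0, against 60.2% of all genes. Their part in the carriers' differences was not tested.

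The difference between knockdown and control that the lines share was tested in a limma fit of log2(TPM + 1) that also held a cell line term, with Benjamini-Hochberg adjustment over 13813 genes. Of the 8 carrier genes in this fit, TTR and GC, under 1 TPM in both PLC/PRF/5 libraries, entered only through Huh7. Their estimates are given with no test. None of the 6 others passed in limma, where 0.00724% of all genes, a single gene, did. SCD itself, at -3.15 with a standard error of 0.25, did not pass (limma, adjusted p = 0.128). Not passing thus does not show that a gene was unchanged. At an unadjusted p under 0.05, TF, AFP and SERPINA1 of the 6 carriers were lower and none was higher. Of all genes in the fit, 5.24% were lower and 12.7% higher at that level. TF had a mean log2 fold change of -0.88 with a standard error of 0.15 (limma, adjusted p = 0.148), and it was lower in both lines. AFP had -0.89 with a standard error of 0.16 (limma, adjusted p = 0.158), and SERPINA1 -0.38 with 0.09 (limma, adjusted p = 0.181). AHSG had -1.12 with a standard error of 0.53 (limma, adjusted p = 0.336). For GC the estimate was 1.53, from 2.71 in Huh7 and 0.34 in PLC/PRF/5. RBP4 and ALB were at -0.44 and -0.02 (limma, adjusted p = 0.356 and 0.982), and TTR had an estimate of -0.27. AFM and FETUB, under 1 TPM in at least 3 libraries, did not enter the fit. The fit has 1 residual degree of freedom, for how alike the lines moved in a gene. It adds 3.71 from the variance of all genes, so each gene's error is set more by all genes than by itself. No test of a different response in the lines can be made with 1 library per group.

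Between the lines, the 6 genes that reached 1 TPM in a library of each line were all higher in Huh7. Over both arms, AFP was higher in Huh7 by 10.03 on the log2(TPM + 1) scale (standard error 0.16; limma, adjusted p = 1.4e-04), ALB by 7.24 (0.34; limma, adjusted p = 3.4e-04) and AHSG by 5.03 (0.53; limma, adjusted p = 0.00186). The smallest differences were those of RBP4 at 2.09 (0.22; limma, adjusted p = 0.00187), SERPINA1 at 0.99 (0.09; limma, adjusted p = 0.00115) and TF at 0.79 (0.15; limma, adjusted p = 0.00918). Without a term for the arm, TF no longer passed (limma, adjusted p = 0.186). TTR and GC, under 1 TPM in both PLC/PRF/5 libraries, entered the fit only through Huh7, where they are high, so their differences of 8.06 and 7.36 are given with no test. Passing was common: of all genes in the fit, 28.3% passed as higher in Huh7, 31.5% as higher in PLC/PRF/5 and 59.8% in either direction. Of the 12064 genes that reached 1 TPM in a library of each line, 24.2% passed as higher in Huh7 and 30.4% as higher in PLC/PRF/5. The test takes the arms as the replicates of a line. Its error joins how alike the line difference was in control and knockdown with the variance of all genes. It does not hold the spread of repeated cultures.

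The order of the genes by level was not the same in the lines. In the Huh7 control it ran AFP, ALB, SERPINA1, RBP4, TF, AHSG, TTR, GC, AFM, FETUB. In the PLC/PRF/5 control it ran SERPINA1, TF, RBP4, ALB, AHSG, AFP, GC, TTR, AFM, FETUB. By the ratio of TPM in the control libraries, TTR was 906-fold and AFP 895-fold higher in Huh7, GC 199-fold and ALB 93.7-fold, AHSG 15.4-fold, RBP4 3.15-fold, SERPINA1 1.94-fold and TF 1.44-fold. In the knockdown libraries these 8 ratios were all larger, with 253-fold for ALB, 751-fold for GC and 81.9-fold for AHSG. TTR and GC were under 1 TPM in PLC/PRF/5, so their ratios rest on very low values.

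**Figure D4:**
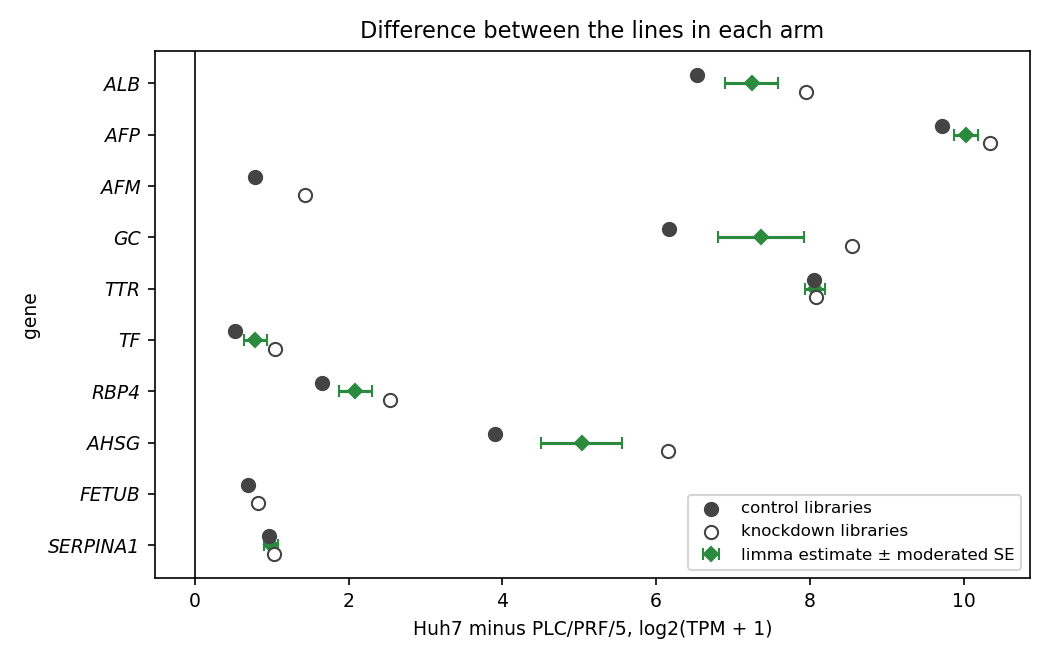
Huh7 minus PLC/PRF/5 in log2(TPM + 1) for each gene, in the control libraries (filled circles) and the knockdown libraries (open circles), with the limma estimate and its moderated standard error as diamonds and bars for the 8 genes in the fit, of which TTR and GC entered it only through Huh7. All points are above 0, from 0.52 for TF to 9.72 for AFP in the control libraries, and the gap between the circles is widest for GC and AHSG.

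The 10 genes were compared among themselves by the Euclidean distance between their log2(TPM + 1) values, each centred on its mean over the 4 libraries. Of 28 pairs among the 8 genes with at least 10 TPM in a library, TF and SERPINA1 were closest (distance 0.579), followed by ALB and TTR (1.10). AFP and TF were farthest apart (9.24). ALB and its neighbour AFP, at 2.95, ranked 9 in closeness. Among 10456 genes, the nearest to ALB were SERPINA5, MT1F and PROM1, with distances of 0.322, 0.568 and 0.611. SERPINA5, the protein C inhibitor and a paralogue of SERPINA1, had 276 TPM in control and 472 TPM in depleted Huh7 cells, and 2.92 and 0.80 TPM in PLC/PRF/5 cells. Like ALB, it was higher in the Huh7 knockdown and lower in the PLC/PRF/5 knockdown, but it was chosen by its distance to ALB over these same values. The log2 fold changes in Huh7 and PLC/PRF/5 were 1.14 and -0.10 for MT1F, and 0.67 and 0.08 for PROM1. The nearest to AFP were SPINK1, IGF2 and VIM, with distances of 1.53, 1.73 and 1.75, so no other gene followed AFP closely. These distances rest on 4 libraries and are largely set by the difference between the lines.

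Other plasma proteins made by the liver were 36 symbols, of which 35 were listed. SELENOP, the symbol not listed, names the same gene as SEPP1, which was listed. These genes were mostly lower in the PLC/PRF/5 knockdown. There, 17 of 23 genes with at least 1 TPM were below 0 and 6 above (26.1%, against 63.4% of all genes), with a median of -0.78. At least 2-fold lower on the log2(TPM + 1) scale were 7 of the 23 (1.11% of all genes), and none was 2-fold higher (1.72%). In Huh7, 13 of 34 were below 0 and 21 above (61.8%, near the 60.2% of all genes), with a median of 0.21. There 3 of the 34 were 2-fold lower (1.54% of all genes) and none 2-fold higher (3.1%) on that scale, while by plain TPM SERPINA7 was 2.43-fold and ITIH4 2.18-fold higher. SERPINA7 and ITIH4, both low, were named after their values were seen. KNG1, the kininogen gene, had 39.6 TPM in control and 17.1 TPM in depleted Huh7 cells, and 34.1 and 5.33 TPM in PLC/PRF/5 cells. ORM1, an acute-phase carrier of basic drugs that shares sequence with its copy ORM2, had 365 and 528 TPM in the same order for Huh7, and 240 and 49.1 TPM for PLC/PRF/5. SERPINA3, the antichymotrypsin gene of the same serpin cluster as SERPINA1, stood at -1.29 in Huh7 and -1.06 in PLC/PRF/5 on the log2 scale. A1BG had -1.91 and -0.25 there. SERPINA6, the cortisol carrier gene beside SERPINA1, had -0.32 and -0.94. None of the 23 genes that reached 1 TPM in a library of each line passed for the knockdown in limma, where 0.00724% of all genes did. The other 10 of the 33 in the fit, under 1 TPM in both PLC/PRF/5 libraries, entered only through Huh7 and are not counted. Of the 23 genes that reached 1 TPM in a library of each line, 15 passed between the lines as higher in Huh7 (24.2% of all such genes), and 3, CP, AGT and SERPINA10, as higher in PLC/PRF/5 (30.4%). CP, AGT and SERPINA10 were named after their values were seen. CP, the copper-carrying ferroxidase gene, had 64.3 TPM in control Huh7 and 433 TPM in control PLC/PRF/5 cells.

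**Figure D5:**
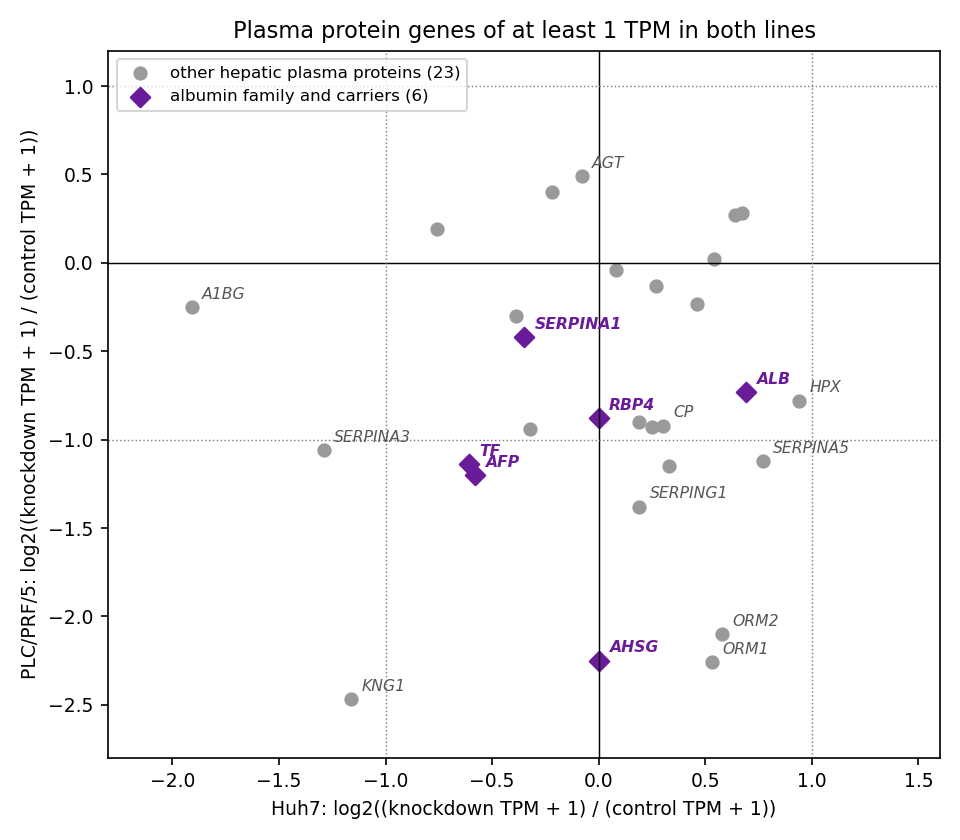
Log2 fold change of knockdown against control on log2(TPM + 1) in Huh7 (x axis) and PLC/PRF/5 (y axis) for the 6 albumin family and carrier genes (diamonds) and 23 other hepatic plasma protein genes (circles) of at least 1 TPM in both lines; dotted lines mark 2-fold. The 6 diamonds lie below 0 on the y axis, and 17 of the 23 circles do too, with KNG1, ORM1 and ORM2 lowest.

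Paralogues of the carriers outside the albumin family were 21 symbols, of which 20 were listed and 14 were in the fit. Of these 14, 6 were under 1 TPM in both PLC/PRF/5 libraries, entered only through Huh7 and are not counted. None of the other 8 passed for the knockdown in limma, where 0.00724% of all genes did. MELTF, the symbol not listed, names the same gene as MFI2, which was listed. In Huh7, 4 of 15 were at least 2-fold lower, RBP2, KNG1 and SERPINA3 among them, where 1.54% of all genes were, and the median was -0.32. In PLC/PRF/5, 3 of 8 were at least 2-fold lower, where 1.11% of all genes were, and the median was -0.75. KNG1 and SERPINA3 are also in the list of other plasma proteins. RBP2, a retinol-binding protein that stays inside cells, belongs to another protein family than RBP4. It had 28.5 TPM in control Huh7 cells and 4.16 TPM in depleted ones. In PLC/PRF/5 cells it was listed at 0 in the control and had 0.11 TPM in the knockdown. Secreted RBP4 stood at 0.00 on the log2 scale in Huh7.

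Regulators known to act on the albumin locus or on liver genes were 32 in number, with 31 in the fit. Of these 31, 2 were under 1 TPM in both PLC/PRF/5 libraries, entered only through Huh7 and are not counted. None of the other 29 passed for the knockdown in limma, where 0.00724% of all genes did. ZBTB20, which represses AFP after birth, had 2.70 TPM in control and 6.79 TPM in depleted Huh7 cells, with 1.58 and 3.23 TPM for PLC/PRF/5. It was higher with the knockdown in each line, where AFP was lower (mean log2 fold change 0.89; limma, adjusted p = 0.181). ZHX2, also a repressor of AFP, stood on the other side, with -0.41 and -0.40. CEBPD, an acute-phase member of the C/EBP family, had 33.1 TPM in control and 114 TPM in depleted Huh7 cells, with 47.8 and 47.3 TPM for PLC/PRF/5. CEBPA, an activator of ALB, was the only 1 of 29 regulators that was at least 2-fold lower in PLC/PRF/5 (1.11% of all genes), at 98.3 TPM in control and 48.4 TPM in depleted cells, against 444 and 350 TPM for Huh7. It was named after its values were seen. ONECUT2 stood at 0.92 in each line, and NFIB at 1.38 in Huh7 and 0.86 in PLC/PRF/5, on the log2 scale. In Huh7, 4 of 31 were at least 2-fold higher (3.1% of all genes), with CEBPD, NFIB and ZBTB20 among them, and none was 2-fold lower (1.54%). None was 2-fold higher in PLC/PRF/5 (1.72%). Over the list, the median was 0.27 in Huh7 and 0.06 in PLC/PRF/5. Of the 29 regulators that reached 1 TPM in a library of each line, 13 passed between the lines as higher in Huh7 (24.2% of all such genes) and 4 as higher in PLC/PRF/5 (30.4%).

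Receptors and partners that handle the carriers were 30 genes, of which 29 were listed and 24 were in the fit. Of these 24, 3 were under 1 TPM in both PLC/PRF/5 libraries, entered only through Huh7 and are not counted. None of the other 21 passed for the knockdown in limma, where 0.00724% of all genes did. TFRC, the receptor through which cells take up transferrin iron, had 308 TPM in control and 298 TPM in depleted Huh7 cells, with 648 and 570 TPM for PLC/PRF/5. The ratio of TF to TFRC was therefore 5.25 and 3.55 for control and depleted Huh7 cells, and 1.74 and 0.895 for PLC/PRF/5. STEAP3, which reduces the iron that transferrin delivers, stood at 0.36 in Huh7 and 0.70 in PLC/PRF/5 on the log2 scale. FCGRT, the receptor that rescues albumin from degradation, had 77.2 TPM in control and 114 TPM in depleted Huh7 cells, with 66.6 and 83.2 TPM for PLC/PRF/5. ASGR1, which clears desialylated plasma proteins, had 137 and 204 TPM for Huh7, and 310 and 392 TPM for PLC/PRF/5. RDH10, which oxidises retinol, stood at 1.17 in Huh7 and 0.29 in PLC/PRF/5 on the log2 scale. The list's median was -0.04 in Huh7 and -0.02 in PLC/PRF/5.

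Genes of the secretory pathway that exports these proteins mostly stood on the other side of 0 from the carriers in PLC/PRF/5. There, 27 of 30 genes (90%) were above 0, with a median of 0.25, where 63.4% of all genes were above 0, while all 6 carriers considered were below 0. The count depends on the scaling, since some of these genes lay close to 0, such as SURF4 at 0.04 and PDIA3 at 0.07. Median-ratio scaling moved the median of all genes in PLC/PRF/5 from 0.10 to -0.03, and the list was not counted again with it. In Huh7, 19 of 30 (63.3%) were above 0, near the 60.2% of all genes, with a median of 0.11. MCFD2 and LMAN1 form the cargo receptor that takes alpha-1-antitrypsin and coagulation factors out of the ER. MCFD2 had 104 TPM in control and 143 TPM in depleted Huh7 cells, with 151 and 205 TPM for PLC/PRF/5, and LMAN1 stood at -0.20 in Huh7 and 0.09 in PLC/PRF/5 on the log2 scale. EDEM1, which routes misfolded glycoproteins to degradation, had 0.73 and 0.62 on that scale. MIA3, an export receptor for large cargo, had 0.42 and 0.70, and SAR1B, the GTPase that starts COPII vesicles, had 0.62 and 0.27. No gene of the list reached 2-fold on this scale in either line. None of the 30 passed for the knockdown in limma, where 0.00724% of all genes did.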

How the data were processed

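RNA-seq of 4 libraries was compared, with groups taken from the sample titles. The authors deposited TPM per gene symbol and library, per the file headers; cutadapt, RSEM 1.2.21 and build hg19 come from the submitters' processing notes, and how reads were aligned, annotated and counted by strand is not given in the sources used here. TPM is scaled by transcript length to the same total in every library, so depth is unknown, no counting interval was computed, and abundant genes shift all others. From these values, log2(TPM + 1) was fitted with limma 3.58.1 in R 4.3.3 (cell line and arm terms, variance trend, two-sided, 1 residual and 3.71 prior degrees of freedom) on 13813 genes with at least 1 TPM in at least 2 libraries. Benjamini-Hochberg adjustment ran over all of them, with a threshold of 0.05. The fit was also run on values simulated from its own fitted variances, with knockdown changes larger than any estimated for the carriers. That run does not show whether changes as small as theirs would pass. Within a line, genes with at least 1 TPM in a library of the pair were counted at 2-fold without a test. The labels name no separate cultures or experiments. The p-values therefore rest on how far the arm difference disagreed between the lines, or the line difference between the arms. They do not cover the spread of repeated cultures. Most of the weight in each gene's error lies on the variance trend over all genes (3.71 degrees of freedom), not on its own disagreement (1). Part of the disagreement may be technical.

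The 10 genes and all lists were chosen with earlier results of these data known. Named genes were the 10, SCD, up to 4 genes of each other list with the largest mean fold change among those of at least 5 TPM in a library, up to 2 more with a known tie to a member, and the 3 genes nearest to ALB and to AFP. Promoters and gene neighbours came from RefSeq tables of GRCh38.p14, another build than the authors', and shared sequence from GENCODE 29. The alternatives were pseudocounts of 0.1 and 5, a filter of 5 TPM or none, median-ratio scaling, totals without the 10 genes, and fits without the variance trend, the cell line or the arm. Python 3.11.15 was used for the rest. Some items of the lists are not reported here.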

Additional observations from a re-analysis of the deposited data

Results flagged for a closer look

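ALB, RBP4 and AHSG stood on opposite sides of 0 in the lines. The log2 fold change in Huh7 exceeded that in PLC/PRF/5 by 1.42 for ALB, by 0.89 for RBP4 and by 2.25 for AHSG, and this difference between the lines was not tested, since each group has 1 library. For ALB the values were 0.69 and -0.73. For RBP4 and AHSG the Huh7 value was 0.00 (-0.10 with median-ratio scaling, which puts both lines on the same side), so those contrasts rest on PLC/PRF/5.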

How the results depend on the processing

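The cell line term of the main fit paired knockdown with control within each line. No other pairing was possible, because the labels carry no replicate numbers and each group has 1 library. None of the 6 carriers that reached 1 TPM in a library of each line passed for the knockdown in limma, under each alternative run. Between the lines, the 6 carriers that reached 1 TPM in a library of each line passed under each alternative, except TF without the arm term. Of all genes in the fit, 8260 passed in the main setting, 6512 without the arm term and 7576 without a filter. TTR, GC, AFM and FETUB, under 1 TPM in both PLC/PRF/5 libraries, are not counted here. The count of carriers at least 2-fold higher in Huh7 was 2 with pseudocount 0.1 (GC and AFM) and 1 otherwise. The mean knockdown difference of ALB turned from -0.02 to 0.01 with pseudocount 5, both close to 0. The AFP to ALB ratio of the PLC/PRF/5 knockdown was 0.257 with 5 TPM added. Without ALB and AFP the summed TPM was 6982 and 6454 in the Huh7 control and knockdown. Counts over all genes moved most with the pseudocount: at 0.1, 695 genes were 2-fold higher and 370 lower in Huh7 and 480 and 248 in PLC/PRF/5, and at 5, 155, 92, 68 and 55, beside 418, 207, 225 and 145. Median-ratio scaling put the median of all genes at -0.01 in Huh7 and -0.03 in PLC/PRF/5, and took the higher share of 2-fold genes in PLC/PRF/5 from 60.8% to 40.8%, with 223 lower. Across the lines, 1 gene passed for the knockdown, 2 with pseudocount 0.1, and 0 with pseudocount 5, without a filter, without the variance trend or without the cell line term. The line difference in the control libraries alone was 6.53 for ALB, 6.17 for GC and 3.91 for AHSG. TPM carries no depth, so how precisely genes under 1 TPM were measured is unknown.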
